A study of Mus musculus with 59 samples.

Results

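Between days 10-12 and days 21-34 after birth the mouse prefrontal cortex was sampled in 18 of the 59 mice of the series, and the step between these ages is described here. The mice were chosen by the age in their labels: 9 mice of day 10, 11 or 12 and 9 mice of day 21, 23, 24, 32 or 34, with no mouse between day 12 and day 21. Poly(A)+ RNA was sequenced, 1 library per mouse, and the deposited unit is RPKM, reads scaled to transcript length and to library size. All mice were C57Bl/6. Transgenic mice carried a human bacterial artificial chromosome with GLUD2, a human gene of glutamate dehydrogenase, which had been linearized and injected into the male pronucleus, and they came from 2 lines, a and b, each with controls of its own. Whether a line stems from 1 founder, and what separates the controls of the lines, is not given in the sources used here. Each age group held 4 control and 5 transgenic mice, 5 mice of line a and 4 of line b, and 5 females and 4 males. At days 10-12 all line a mice were of day 10 or 11 (4 and 1 mice) and all 4 line b mice of day 12, so that line and exact age cannot be told apart there. At days 21-34 there were 5 mice of days 21-24 and 4 of days 32-34, with both lines at either age. In transgenic mice GLUD2 had a mean of 6.81 ± 0.672 RPKM at days 10-12 and of 8.06 ± 1.16 RPKM at days 21-34 (SD, n = 5 each), against 0.308 ± 0.151 and 0.417 ± 0.197 RPKM (SD, n = 4 each) in the controls of these ages. The table also has a row named lincBAC, which stood at 6.53 ± 2.27 and 10.6 ± 1.82 RPKM (SD, n = 5 each) in transgenic mice and at 0 to 0.149 RPKM in controls.

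In mice this interval spans eye opening and weaning. Cortical axons stop growing and become wrapped in myelin by oligodendrocytes, synapses multiply and exchange receptor subunits of early life for mature ones, and fast-spiking inhibitory neurons acquire their channels and a net of extracellular matrix. The fuel of the brain also changes: milk is rich in fat, so that suckling animals use ketone bodies beside glucose, and weaned animals rely mainly on glucose.

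Several libraries stood apart and are named before the results. Control mouse 10 and transgenic mice 37 and 38, all of days 10-12 and line a, were low in genes of cortical excitatory neurons. The summed level of 5 such genes was 290, 323 and 229 RPKM in mice 10, 37 and 38. It was 604 to 854 RPKM in the other mice of days 10-12 and 543 to 886 RPKM in the mice of days 21-34. Markers of hypothalamus, thalamus and septum (15 genes, all above 0 in at least 1 library) summed to 164 and 168 RPKM in mice 10 and 38. In the other 7 mice of days 10-12 they summed to 19.2 to 56.8 RPKM, highest in mouse 37. Tcf7l2, of this list, was at 9.71 and 9.21 RPKM in mice 37 and 38 and at 0.447 to 3.16 RPKM in the other libraries. Ttr, the thyroxine carrier made by the choroid plexus, reached 188, 214 and 124 RPKM in mice 10, 11 and 38 and 240 RPKM in mouse 16, with 0.241 to 2.83 RPKM in the other 14 mice. Striatal markers varied several-fold within both ages, from 80.6 to 480 RPKM summed over 14 genes at days 10-12 and from 146 to 894 RPKM at days 21-34. Mouse 13 of day 21 had the most blood, with 687 RPKM summed over 7 globin and red-cell genes against 122 to 253 RPKM in the other 8 mice of its age. The part of these differences in the results was not tested beyond the fits without mice 10 and 38 and with the striatal markers as a covariate, both added after the data were seen. The fit without mice 10 and 38 kept mouse 37. Depth, estimated from the steps of low values, was 8.85 to 11.9 M reads, with 9.85 ± 0.632 M at days 10-12 and 10.4 ± 0.977 M at days 21-34 (SD, n = 9 each; exact two-sided permutation p = 0.171).

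**Figure D1:**
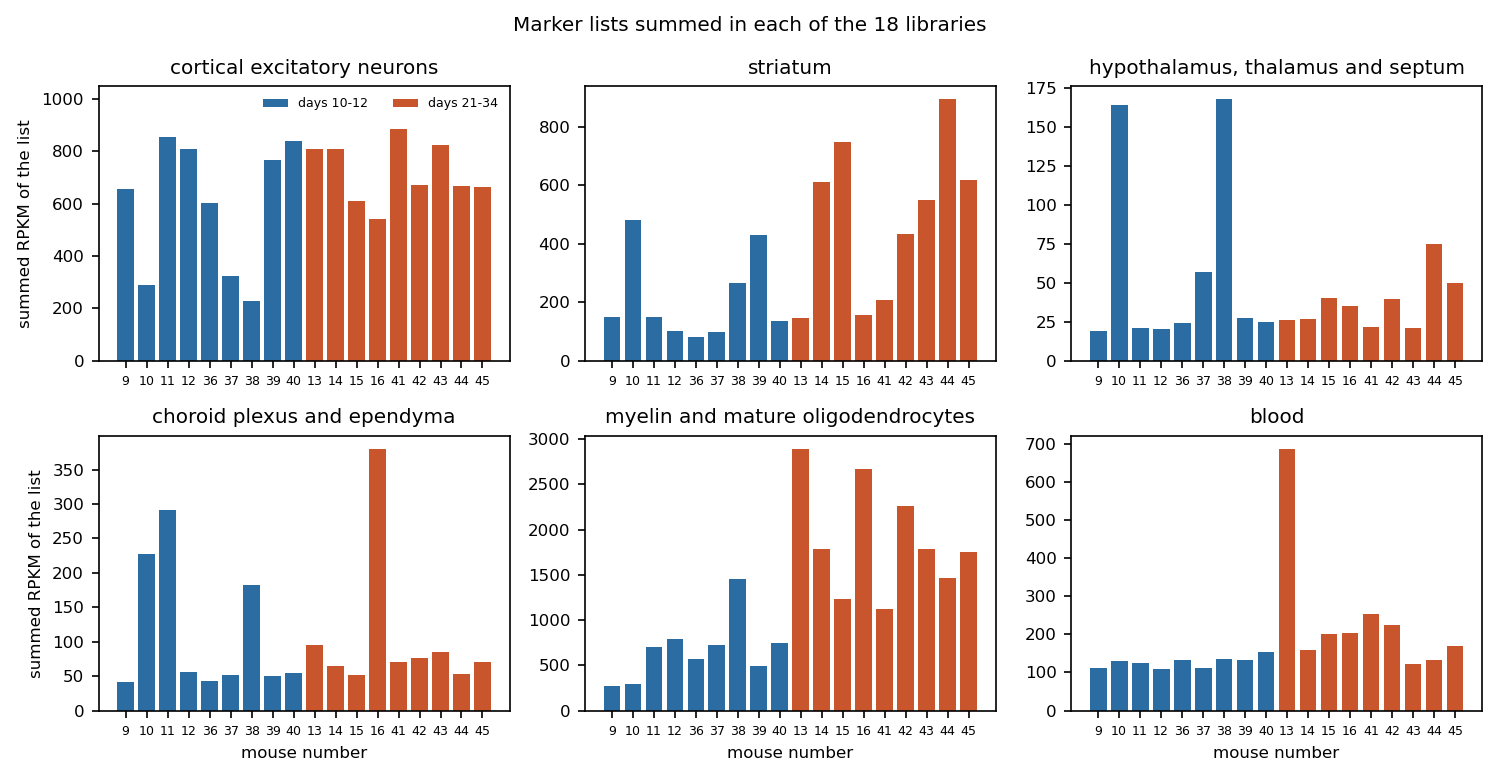
Summed RPKM of 6 marker lists (y axes, from 0) in each of the 18 libraries (x axes, mouse numbers), days 10-12 in blue and days 21-34 in orange. Mice 10, 37 and 38 are low in genes of cortical excitatory neurons. Mice 10 and 38 are high in genes of hypothalamus, thalamus and septum, at 164 and 168 RPKM, and mouse 13 stands out in blood at 687 RPKM.

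Genes were tested where 9 or more of the 18 libraries reached 0.5 RPKM, which the 9 mice of 1 age can meet alone. Of these 15043 genes, 2905 (19.3%) were higher and 3361 (22.3%) lower at days 21-34 than at days 10-12. These calls are at an adjusted p under 0.05 by limma with genotype and line as covariates, Benjamini-Hochberg over all genes tested, on log2(RPKM + 0.5), the scale of every log2 difference below. The p values measure the spread between mice, with 1 library each. In 626 genes (4.16%) all 9 later mice lay above all 9 earlier ones, and in 806 genes (5.36%) below them. Most called differences were small: 179 of the genes that rose did so by more than 1 on the log2 scale and 15 by more than 2, and of those that fell 136 did so by more than 1 and 7 by more than 2. The median over all genes tested was -0.01. In whole tissue, fewer cells of a type and less RNA per cell cannot be told apart, and this holds for every result that follows. Without mice 10 and 38, 3187 genes were higher and 3368 lower, and 90.0% of the 6266 calls were kept.

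The genes were also read through 42 lists of cell types and pathways. The share of a list's tested members that was called is set against 19.3% higher and 22.3% lower among all genes, as a description.

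**Figure D2:**
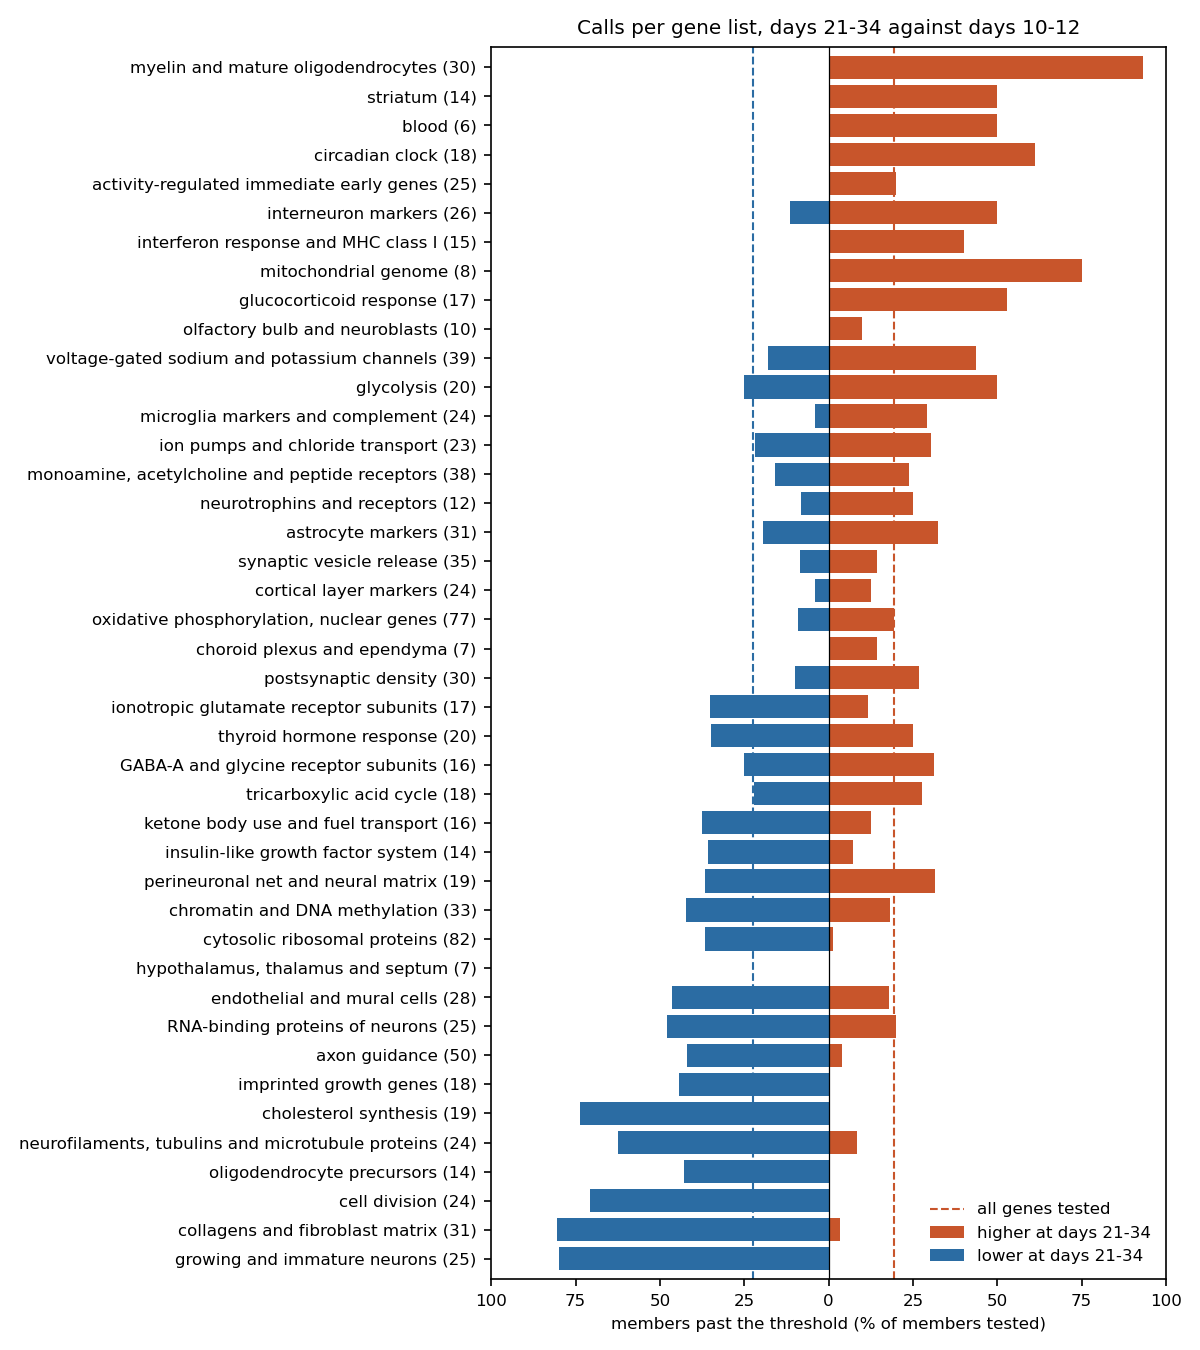
Share of the tested members of each list (y axis, with the number tested) called higher (orange, to the right) or lower (blue, to the left) at days 21-34, in percent (x axis), ordered by the median log2 difference. Dashed lines mark 19.3% and 22.3%, the shares among all 15043 genes. Myelin (93.3% higher) and growing and immature neurons (80.0% lower) stand at the ends.

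Myelin genes had the highest median of the 42 lists. Of 30 genes of myelin and mature oligodendrocytes 28 rose and 0 fell, with a median log2 difference of 1.54. Mal (ENSMUSG00000027375), a proteolipid of compact myelin, had its lowest, median and highest value at 1.65, 10.4 and 25.2 RPKM in the 9 mice of days 10-12. At days 21-34 these values were 52, 111 and 145 RPKM. All later mice lay above all earlier ones, the highest of the earlier ones being mouse 38. The rise of 3.54 ± 0.39 (SE; adjusted p = 2.9e-06) was the largest of the genes without overlap and at 1 RPKM or more, and the mean was 9.94-fold higher. Opalin, a membrane glycoprotein found in oligodendrocytes, went from 1.21 ± 0.833 to 9.21 ± 2.25 RPKM (SD, n = 9 each), a log2 difference of 2.63 ± 0.26 (SE). Ermn, which shapes the cytoskeleton of myelinating cells, rose by 2.59 ± 0.32 (SE), and Hapln2, a link protein of the matrix at the nodes of myelinated axons, by 2.50 ± 0.29 (SE), both without overlap of the age groups. Aspa, the aspartoacylase that frees acetate for lipid synthesis, rose from 0.628 ± 0.246 to 2.76 ± 0.931 RPKM (SD, n = 9 each). Mbp, the abundant myelin basic protein, rose but overlapped between the ages, with 35.9 to 337 RPKM at days 10-12 and 206 to 590 RPKM at days 21-34 (log2 difference 1.58 ± 0.36, SE; adjusted p = 0.00193). The highest value of days 10-12 was that of mouse 38.

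Markers of the precursors of these cells went the other way. Among 14 markers of oligodendrocyte precursors 6 fell and 0 rose (median -0.44). Pdgfra, the receptor that keeps precursors dividing, was at 12.2, 13.5 and 23.2 RPKM (lowest, median, highest) at days 10-12 and at 7.81, 8.83 and 10.0 RPKM at days 21-34, without overlap. Its fall was 0.81 ± 0.11 on the log2 scale (SE; adjusted p = 2.25e-05). Cspg4, the NG2 proteoglycan, fell by 0.60 ± 0.10 (SE). Sox6, a transcription factor of precursors and of interneurons, fell by 0.51 ± 0.09 (SE). Tmem100, a small membrane protein, fell by 0.48 ± 0.07 (SE). At days 10-12 Pdgfra, Cspg4 and Sox6 were highest in mice 10, 37 and 38, at 19.9 to 23.2, 5.78 to 6.47 and 4.99 to 5.84 RPKM. The other mice of that age were at 12.2 to 14.4, 3.77 to 4.2 and 3.39 to 4.0 RPKM, so that these libraries enlarge the falls. Without mice 10 and 38 there were 6 lower and 0 higher (median -0.38), with mouse 37 still in the fit.

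Enzymes of cholesterol synthesis fell while the myelin genes rose. Of 19 tested 14 fell and 0 rose, with a median of -0.35, and 7 fell without overlap. Dhcr7, which makes cholesterol in its last step, was at 14.8, 15.6 and 18.4 RPKM (lowest, median, highest) at days 10-12. At days 21-34 it was at 8.90, 10.1 and 12.1 RPKM, all below the earlier mice, a fall of 0.64 ± 0.06 (SE; adjusted p = 4.95e-07). Tm7sf2, a sterol reductase, fell by 0.76 ± 0.07 (SE), Sqle, the squalene epoxidase, by 0.60 ± 0.07 (SE) and Acat2, which joins acetyl groups at the entry of the pathway, by 0.56 ± 0.06 (SE).

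Genes of growing and immature neurons had the lowest median of the 42 lists, -0.89: 20 of 25 fell, 0 rose, and 13 of them did so without overlap. Dpysl3, a collapsin response mediator that steers growth cones, was at 51, 70 and 158 RPKM (lowest, median, highest) at days 10-12 and at 9.96, 13.7 and 38.1 RPKM at days 21-34. No later mouse reached the lowest earlier one, and the later maximum was mouse 15, apart from the next at 17.6 RPKM. The fall of 2.50 ± 0.24 (SE; adjusted p = 1.09e-06) was 5.83-fold in the means, and its relative Dpysl5 fell 5.54-fold. Stmn2, which binds tubulin in growing axons, fell from 513 ± 76.1 to 202 ± 28.4 RPKM (SD, n = 9 each; log2 difference -1.34 ± 0.08, SE). Gap43, the growth-associated protein of axon terminals, fell from 380 ± 61.1 to 169 ± 20.6 RPKM (SD, n = 9 each). Tuba1a, the main alpha tubulin of the developing brain, fell from 988 ± 170 to 385 ± 66.6 RPKM (SD, n = 9 each). Nrep, a small protein expressed during neuronal regeneration, fell by 1.84 ± 0.23 (SE).

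Tubulins and microtubule proteins as a list had 15 of 24 lower and 2 higher, 11 of the falls without overlap (median -0.44). Tubb2a fell from 648 ± 55.0 to 272 ± 42.3 RPKM (SD, n = 9 each), Tubb5 from 328 ± 51.2 to 158 ± 18.5 RPKM and Tubb2b from 243 ± 99.4 to 63.4 ± 27.5 RPKM (SD, n = 9 each). Near-identical tubulin genes may share reads, and how such reads were assigned is not given in the sources used here. Of 50 axon guidance genes 21 fell and 2 rose (median -0.22). Plxna1 and Plxna3, receptors of semaphorins, fell by 1.13 ± 0.11 and 0.84 ± 0.12 (SE), Sema6a, a semaphorin, by 0.79 ± 0.12 (SE) and Ephb2, a receptor of ephrins, by 1.17 ± 0.14 (SE). Cell division genes were low at both ages and lower at days 21-34, with 17 of 24 tested falling and 0 rising (median -0.49). Of 30 members 24 passed the filter of 0.5 RPKM in 9 of 18 libraries, which genes this low can pass through days 10-12. Cdk1 was at 0.556 to 1.36 RPKM at days 10-12 and at 0.122 to 0.51 RPKM at days 21-34. A gene that passes in this way could hardly rise, so the filter in part sets the absence of rises. Mki67, a protein of dividing nuclei, fell from 1.56 ± 0.31 to 0.669 ± 0.269 RPKM (SD, n = 9 each), and Cdk1, the mitotic kinase, from 0.891 ± 0.232 to 0.264 ± 0.143 RPKM. Mcm6, of the replication helicase, fell by 0.80 ± 0.12 (SE), and Rrm2, of ribonucleotide reductase, by 0.83 ± 0.14 (SE).

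Other large changes lay outside these lists or in several of them. Among the 12 largest rises without overlap were Etnppl, an enzyme that degrades phosphoethanolamine, which was at 0 to 0.342 RPKM at days 10-12 and 2.24 to 8.67 RPKM at days 21-34. Igfbp6, a binding protein of insulin-like growth factors, rose from 3.58 ± 1.02 to 16 ± 1.43 RPKM (SD, n = 9 each) and had the smallest p of the rises named (2.05 ± 0.12, SE; adjusted p = 2.12e-08). Gpd1, which makes glycerol 3-phosphate from a glycolytic intermediate, rose 3.79-fold to 23.3 ± 2.76 RPKM (SD, n = 9). Fam107a, an actin-associated protein, rose from 25.9 ± 11.1 to 87.9 ± 15.6 RPKM, and Plekhb1, a membrane-binding protein, from 11.2 ± 2.86 to 45.3 ± 18.5 RPKM (SD, n = 9 each). Igfn1 rose from 0.167 ± 0.0915 to 2.35 ± 1.10 RPKM and Sec14l5 from 0.690 ± 0.480 to 3.95 ± 1.06 RPKM (SD, n = 9 each).

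The largest falls included Rac3, a small GTPase of developing neurons, at 32.9, 49.2 and 81.0 RPKM (lowest, median, highest) at days 10-12 and 9.90, 11.9 and 14.6 RPKM at days 21-34. The 9 later values were tight and far below the earlier ones (-1.98 ± 0.12, SE; adjusted p = 4.53e-08). Cxadr, an adhesion molecule that also serves as the receptor of coxsackieviruses and adenoviruses, fell 4.49-fold to 7.61 ± 1.73 RPKM (SD, n = 9). Lsm11, of the particle that processes histone messages, fell 4.33-fold, and Mkrn3, an imprinted ubiquitin ligase, 5.23-fold to 1.44 ± 0.628 RPKM (SD, n = 9). Aplnr, the apelin receptor, fell from 4.09 ± 0.893 to 0.635 ± 0.388 RPKM (SD, n = 9 each). Rpph1, the RNA of ribonuclease P, was at 0.682 to 5.08 RPKM at days 10-12 and 0 to 0.652 RPKM at days 21-34. It lies beside a coding gene and the strand of counting is not given in the sources used here, so that overlapping transcripts cannot be told apart. The libraries were of poly(A)+ RNA, and whether the Rpph1 reads come from this RNA itself was not tested.

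Imprinted growth genes had 8 of 18 lower and 0 higher (median -0.29), and without mice 10 and 38 there were 6 lower and 3 higher. H19, a maternally expressed RNA of fetal tissue, fell from 4.40 ± 3.90 to 0.645 ± 0.345 RPKM (SD, n = 9 each), with mouse 37 at 14.4 RPKM. Its neighbour Igf2, a fetal growth factor, fell from 30.5 ± 6.71 to 17 ± 5.15 RPKM (SD, n = 9 each). Rtl1, a retrotransposon-derived gene, fell by 0.40 ± 0.09 (SE). In the insulin-like growth factor system 5 of 14 fell and 1, Igfbp6, rose (median -0.12). Igf1 fell from 2.18 ± 0.293 to 1.12 ± 0.212 RPKM (SD, n = 9 each), without overlap, and Irs1, the adaptor of its receptor, by 0.57 ± 0.10 (SE).

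**Figure D3:**
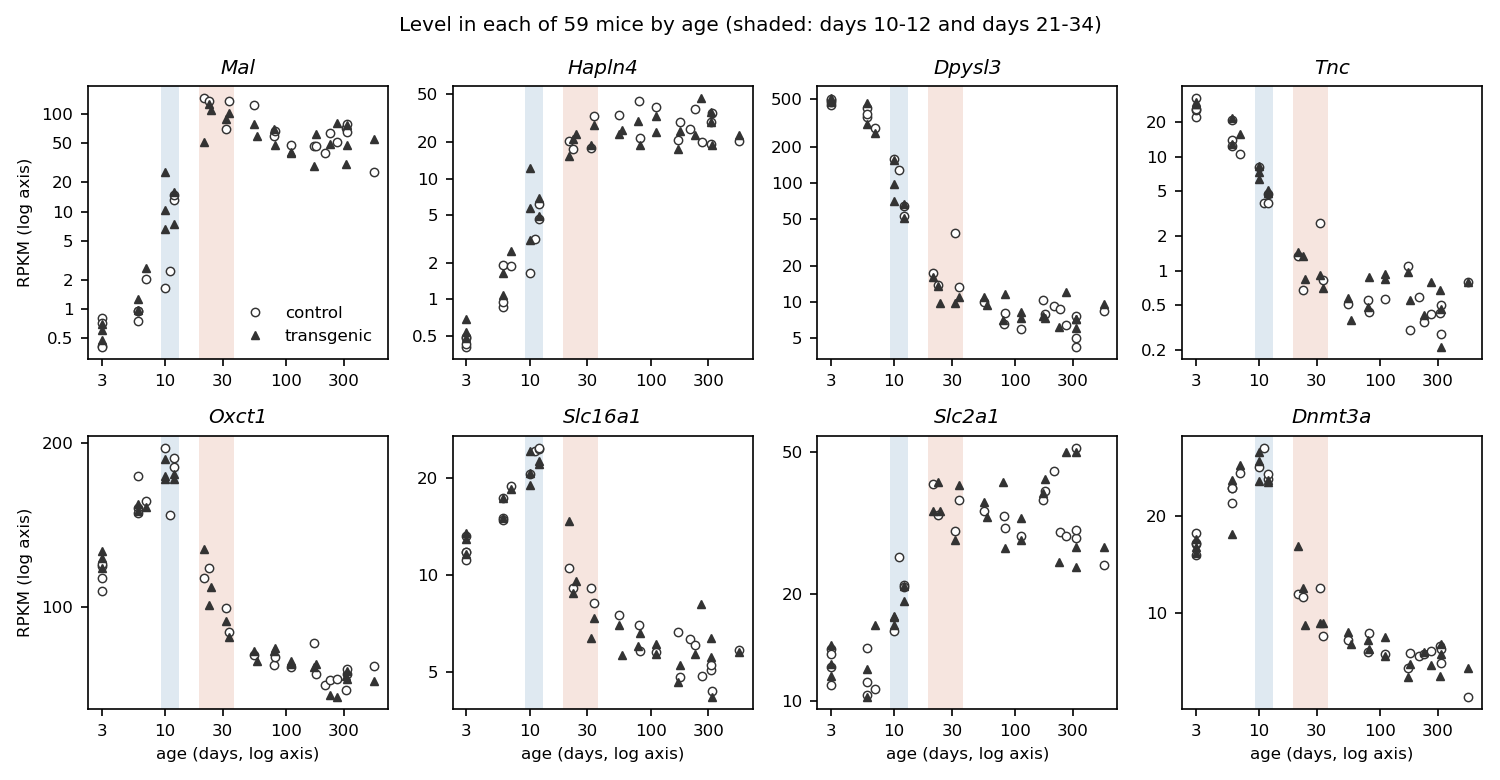
RPKM (log y axes) of 8 genes in all 59 mice against age in days (log x axes), control mice as circles and transgenic mice as triangles, with days 10-12 shaded blue and days 21-34 orange. Oxct1, Slc16a1 and Dnmt3a climb to days 10-12 and then drop, Mal is highest at days 21-34, and Dpysl3 and Tnc decline throughout the first weeks.

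Set against the other ages, the step held different parts of a longer course, given as means and as description only. Dpysl3 was at 483 RPKM at day 3 (n = 7) and 354 RPKM at days 6-7 (n = 7), so that much of its decline came before day 10, and it was at 8.61 RPKM at days 55-111. Mal was at 0.590 RPKM at day 3, reached 108 RPKM at days 21-34 and was at 64.0 RPKM at days 55-111 and 56.5 RPKM at days 170-319. Slc16a1, Oxct1 and Dnmt3a had higher means at days 10-12 than at any other age, as given with their groups. Igfn1 and Etnppl were higher after this interval than within it, at 4.94 and 4.67 RPKM at days 55-111 and 4.10 and 8.09 RPKM at days 170-319.

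Subunits of glutamate receptors changed in both directions, 2 of 17 higher and 6 lower (median -0.00). Grin2c, an NMDA receptor subunit of late onset, rose from 4.93 ± 1.45 to 9.0 ± 0.580 RPKM (SD, n = 9 each), all later mice above all earlier ones. Grin2d and Grin3a, subunits of early life, fell by 1.13 ± 0.14 and 1.07 ± 0.11 (SE), both without overlap. Grin2b, the predominant early partner of the receptor, fell by 0.50 ± 0.18 (SE; adjusted p = 0.0317), a call lost in 8 of the 18 fits that left out a mouse. Grin2a, which replaces it, was at 2.46 ± 0.708 and 2.79 ± 1.04 RPKM (SD, n = 9 each; adjusted p = 0.668). Gria3, an AMPA receptor subunit, rose by 0.53 ± 0.12 (SE). Among 16 subunits of GABA-A and glycine receptors 5 rose and 4 fell (median -0.02). Gabra5, an alpha subunit of extrasynaptic receptors, fell from 34.1 ± 5.90 to 19 ± 1.96 RPKM (SD, n = 9 each), and Glra2, the fetal glycine receptor subunit, from 13.8 ± 4.61 to 6.67 ± 1.02 RPKM, both without overlap.

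Because RPKM is per length, 2 genes, here mostly members of a family, can be compared within a library. For 24 pairs of a late and an early partner the log2 ratio was taken in each mouse and compared by exact two-sided permutation of 9 against 9 mice, adjusted over the 24 pairs. In 17 pairs the ratio differed, 15 towards the late partner and 2 towards the early one, and in 11 pairs the 2 ages did not overlap (p = 4.11e-05, the smallest possible, adjusted p = 8.97e-05 for each). The ratio of Grin2a to Grin2b went from -2.31 ± 0.19 to -1.69 ± 0.20 (SD, n = 9 each). For Grin2c over Grin2d it went from -0.89 ± 0.84 to 1.09 ± 0.30 (SD, n = 9 each), so that the order of the partners reversed in the mean. The mice of day 12, all of line b, were already at -0.43 to 0.14, with mouse 40 the highest. Those of day 10 or 11 were at -2.32 to -1.12. Hapln4 over Hapln1, link proteins of the matrix, had the largest shift, from -1.07 ± 0.76 to 1.71 ± 0.57 (SD, n = 9 each). Scn1a over Scn3a, sodium channels of mature and immature neurons, shifted by 1.05. Map1a over Map1b, the adult and juvenile microtubule-associated proteins, went from -0.48 ± 0.25 to 0.31 ± 0.09 (SD, n = 9 each). Camk2a over Camk2b, the kinase subunits of the synapse, shifted by 0.83 and Ezh1 over Ezh2, Polycomb methyltransferases, by 0.69. Tuba4a over Tuba1a shifted by 1.57 and Tnr over Tnc by 1.79. Slc2a1 over Slc16a1, carriers of different fuels rather than members of a family, shifted by 2.12.

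The pairs that overlapped were less uniform. Tubb4a over Tubb2b shifted by 2.14 (exact permutation adjusted p = 0.000165) and Acan over Vcan by 0.57 (0.00114). Gabrd over Gabrg1 shifted by 1.08 (0.0149) and Vamp1 over Vamp2 by 0.96 (0.047). For Gabrd over Gabrg1 mice 10, 37 and 38 were at -0.91, -0.57 and -0.84. The other mice of days 10-12 were at 0.93 to 1.59, within the later range of 0.7 to 2.23. Mice 10, 37 and 38 thus enlarge this shift. The chloride transporters went against their names as late and early: Slc12a5, which extrudes chloride in mature neurons, rose by 0.17 ± 0.05 (SE), and Slc12a2, which loads it, by 0.65 ± 0.12 (SE), so that their ratio shifted by -0.48 (exact permutation adjusted p = 0.00282). Slc12a2 is also expressed by oligodendrocytes and choroid plexus. Dlg4 over Dlg3, scaffolds of the postsynaptic density, shifted by -0.14 (exact permutation adjusted p = 0.047). Of the remaining 7 pairs, which did not pass, 6 were Cplx1 over Cplx2 at 0.37, Slc17a7 over Slc17a6 at 1.09, Nefh over Ina at 0.09, Syt2 over Syt4 at 0.78, Dio2 over Dio3 at -0.28 and Atp2b3 over Atp2b1 at 0.05 (exact permutation, adjusted p = 0.0604 to 0.783). Without mice 10 and 38, 19 pairs passed.

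**Figure D4:**
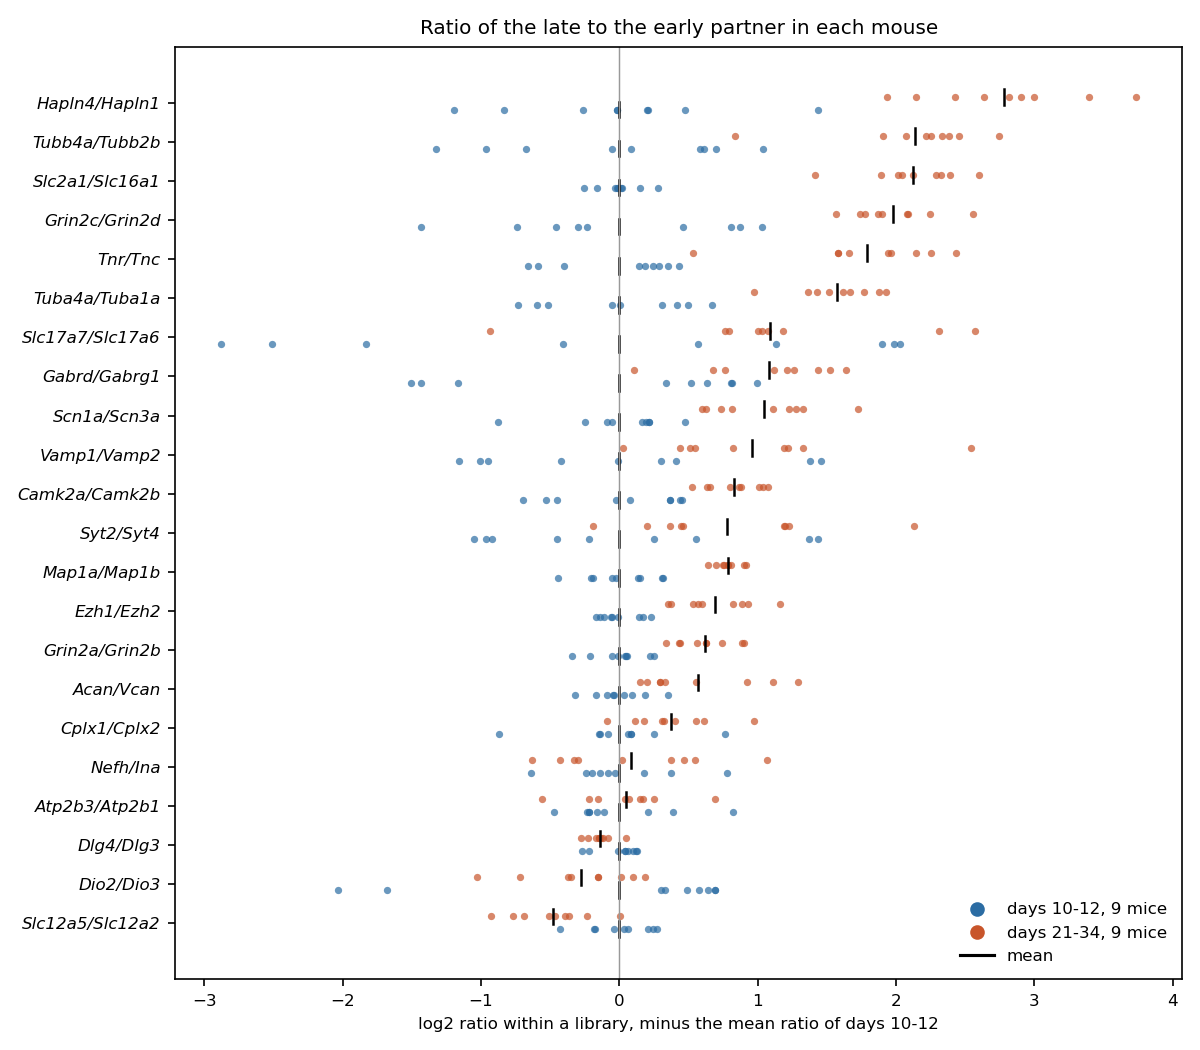
Log2 ratio of the late to the early partner less its mean at days 10-12 (x axis), for 22 pairs (y axis), in each of 9 mice of days 10-12 (blue) and 9 of days 21-34 (orange), with black bars for the means. The shift is largest for Hapln4/Hapln1 at 2.78, and the ages are fully apart in 10 of the 22 pairs drawn.

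Voltage-gated channels rose more often than they fell, 17 of 39 against 7 (median 0.23). Kcna1, a potassium channel of axons, was at 7.93, 13.2 and 14.5 RPKM (lowest, median, highest) at days 10-12 and 19.6, 24.6 and 29.9 RPKM at days 21-34. The ages did not overlap, the lowest value being that of mouse 10 (log2 difference 1.08 ± 0.12, SE; adjusted p = 3.46e-06). Its auxiliary subunits Kcnab2 and Kcnab3 rose 1.83-fold and 2.51-fold, all 3 genes without overlap. Scn1a, the alpha subunit of fast-spiking neurons, rose by 0.48 ± 0.09 and Scn3a, its early counterpart, fell by 0.57 ± 0.14 (SE). Scn4b had the largest log2 rise of the list at 2.52 ± 0.39 (SE), but it is abundant in striatum and stood at 1.65 with the striatal markers as a covariate. Among 23 ion pumps and chloride transporters 7 rose and 5 fell (median 0.14). Car2, a carbonic anhydrase of glia, rose from 28.3 ± 4.39 to 60.1 ± 13.7 RPKM (SD, n = 9 each), and Slc4a10, a bicarbonate transporter, by 0.29 ± 0.07 (SE).

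At synapses, vesicle genes were mostly not called. Of 35 tested 5 rose and 3 fell (median 0.05), and without mice 10 and 38 there were 3 and 6. The rises were 2 or 3 when any 1 of 8 mice was left out, and the falls 5 without mouse 38. Snap25, a core protein of vesicle fusion, was at 89.6, 130 and 172 RPKM (lowest, median, highest) at days 10-12 and 220, 252 and 304 RPKM at days 21-34, without overlap (0.99 ± 0.12, SE; adjusted p = 5.72e-06). Cplx1, a complexin of fast release, rose by 0.44 ± 0.12 (SE), and Doc2a and Doc2b, calcium sensors of release, fell by 0.36 ± 0.08 and 0.63 ± 0.20 (SE). For Doc2b the fall was not seen in line b alone, at 0.06. In the postsynaptic density 8 of 30 rose and 3 fell (median 0.00), the falls being 10 without mice 10 and 38, 7 without mouse 10, 6 without mouse 38 and 5 without mouse 41. Baiap2, which organizes actin in spines, rose by 0.77 ± 0.14 (SE), Dlgap1 and Dlg1, scaffolds, by 0.62 ± 0.09 and 0.57 ± 0.08 (SE), and Ppp1r9b, spinophilin, by 0.47 ± 0.06 (SE). At days 10-12 Baiap2, Dlgap1, Dlg1 and Ppp1r9b were all lowest in mice 10, 37 and 38. In that order they were at 20.8 to 31.1, 10.7 to 11.5, 9.65 to 9.94 and 71.6 to 77.7 RPKM there. The other mice of that age were at 35.4 to 50.7, 14.5 to 19.3, 12.0 to 16.5 and 92.1 to 101 RPKM. Mice 10, 37 and 38 thus enlarge these rises, as for Snap25, at 89.6 to 105 RPKM against 120 to 172 RPKM in the others.

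Markers of inhibitory neurons rose in 13 of 26 cases and fell in 3 (median 0.39). With the striatal markers as a covariate 9 rose and 4 fell, and the calls of Tac1, which the striatal list also holds, and Calb1 were lost. Pvalb, the calcium buffer of fast-spiking basket cells, was at 1.25, 3.97 and 26.6 RPKM (lowest, median, highest) at days 10-12 and 15.2, 24.4 and 35 RPKM at days 21-34. Only mouse 38 of the earlier group reached the later range, the other 8 being at 8.04 RPKM or lower. The rise was 2.23 ± 0.37 (SE; adjusted p = 0.000138) and 2.46 without mice 10 and 38. Kcnc1, the potassium channel that lets these cells fire fast, rose by 0.58 ± 0.08 (SE). Reln, secreted by Cajal-Retzius cells and some interneurons, fell from 9.74 ± 1.90 to 5.22 ± 0.882 RPKM (SD, n = 9 each), without overlap. In the matrix around neurons 6 of 19 genes rose and 7 fell (median -0.13). Hapln4, a link protein of perineuronal nets, rose from 5.37 ± 3.04 to 21.8 ± 5.54 RPKM (SD, n = 9 each), while Hapln1 fell by 0.73 ± 0.12 (SE). Tnc, the tenascin of developing tissue, fell 4.90-fold to 1.19 ± 0.606 RPKM (SD, n = 9). Ncan, the neurocan of juvenile matrix, fell from 70.2 ± 7.30 to 40.3 ± 6.37 RPKM (SD, n = 9 each). Ptprz1, a proteoglycan receptor of glial precursors, fell by 1.0 ± 0.12 and Vcan by 0.50 ± 0.09 (SE). Acan, the aggrecan of mature nets, was low at both ages, with 0.706 ± 0.215 and 0.788 ± 0.340 RPKM (SD, n = 9 each; adjusted p = 0.731).

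Genes of ketone body use were lower at days 21-34. Of 16 genes of ketone use and fuel transport 6 fell and 2 rose (median -0.10), the rises being 1 when any 1 of 10 mice was left out, and the 4 with the smallest p were 4 successive steps of taking up and burning ketone bodies. Slc16a1, the monocarboxylate carrier of the blood-brain barrier, was at 19, 22.6 and 24.7 RPKM (lowest, median, highest) at days 10-12 and 6.35, 9.06 and 14.7 RPKM at days 21-34, without overlap. It fell by 1.26 ± 0.11 (SE; adjusted p = 4.95e-07), and the highest later mouse, number 41, was of day 21. Bdh1, which oxidizes hydroxybutyrate, fell 2.33-fold, from 40 ± 5.84 to 17.1 ± 3.38 RPKM (SD, n = 9 each). Oxct1, which activates acetoacetate, fell from 177 ± 13.8 to 104 ± 13.4 RPKM, and Acat1, which splits the product, from 35.1 ± 3.62 to 20.9 ± 1.32 RPKM (SD, n = 9 each). Their earlier courses differed: Slc16a1 and Oxct1 were lower at day 3 (12.3 and 118 RPKM) than at days 10-12, whereas Bdh1 and Acat1 were at 43 and 43.9 RPKM at day 3. By days 55-111 all 4 were below their level of days 21-34, at 6.30, 80.7, 11.5 and 18.8 RPKM for Slc16a1, Oxct1, Bdh1 and Acat1.

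Glucose genes went the other way. Slc2a1, the glucose carrier of the blood-brain barrier, was at 15.7, 19.1 and 25.4 RPKM (lowest, median, highest) at days 10-12 and 28.3, 34.2 and 41.2 RPKM at days 21-34, without overlap (0.86 ± 0.09, SE; adjusted p = 3.05e-06). Within a library Slc2a1 was below Slc16a1 on average at days 10-12, at a log2 ratio of -0.22 ± 0.15, and above it at days 21-34, at 1.90 ± 0.34 (SD, n = 9 each). Of 20 glycolysis genes 10 rose and 5 fell (median 0.17), the falls being 3 without any 1 of mice 12, 15, 39, 44 or 45. The falls came from Pdha1, Dlat, Hk1, Ldha and Pfkp, of which the first pair belongs to pyruvate dehydrogenase. Aldoa and Aldoc, the aldolases of neurons and astrocytes, rose from 263 ± 42.2 to 450 ± 21.6 RPKM and from 107 ± 12.1 to 182 ± 23.4 RPKM (SD, n = 9 each). Pkm, pyruvate kinase, rose by 0.57 ± 0.06 and Eno2, the neuronal enolase, by 0.67 ± 0.07 (SE), all 4 without overlap.

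**Figure D5:**
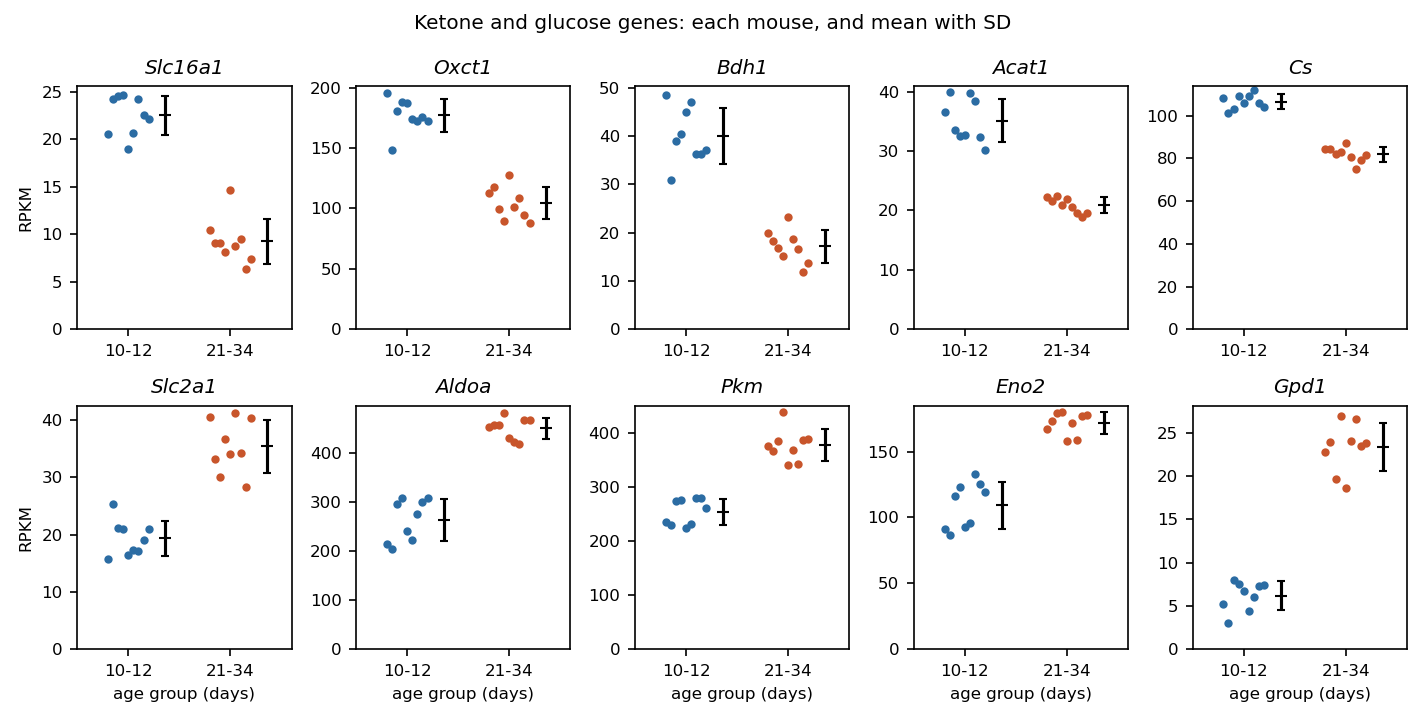
RPKM (y axes, from 0) of 10 genes in each mouse of days 10-12 (blue) and days 21-34 (orange), with the mean and SD beside the points (n = 9 each). In all 10 panels the age groups do not overlap, lower at days 21-34 for Slc16a1, Oxct1, Bdh1, Acat1 and Cs and higher for Slc2a1, Aldoa, Pkm, Eno2 and Gpd1.

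Mitochondrial genes were mixed. In the tricarboxylic acid cycle 5 of 18 rose and 4 fell (median -0.03). Cs, citrate synthase, fell from 106 ± 3.54 to 81.9 ± 3.49 RPKM (SD, n = 9 each; -0.38 ± 0.03, SE; adjusted p = 5.53e-07), without overlap. Within succinate dehydrogenase Sdha rose by 0.35 ± 0.06 and Sdhd fell by 0.31 ± 0.05 (SE), both without overlap. Dlst, of the 2-oxoglutarate dehydrogenase complex, fell by 0.26 ± 0.05 (SE), and Glud1, the mouse glutamate dehydrogenase, by 0.33 ± 0.07 (SE). Glud1 went from 51.9 ± 3.76 to 44.4 ± 5.54 RPKM in controls (SD, n = 4 each). In transgenic mice it went from 54.5 ± 6.98 to 40.9 ± 2.75 RPKM (SD, n = 5 each). Its call was lost in control mice alone and in line b alone, fits with fewer mice. The interaction with genotype, given below, passed for 0 genes. Nuclear genes of oxidative phosphorylation had 15 of 77 higher and 7 lower (median 0.02), with 11 lower without mouse 10. Ndufb10 and Ndufb9, of complex I, rose by 0.29 ± 0.06 and 0.21 ± 0.05 (SE). Of 8 tested genes of the mitochondrial genome 6 rose and 0 fell (median 0.32), mt-Nd2 from 2127 ± 230 to 3151 ± 311 RPKM and mt-Nd4 from 1400 ± 147 to 1889 ± 124 RPKM (SD, n = 9 each), while mt-Nd1 and mt-Cytb rose by 0.33 ± 0.08 and 0.31 ± 0.07 (SE). Quantile normalization, which gives the most abundant genes of every library the same value, left 0 of them higher and 2 lower, so that their direction depends on the scaling.

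Astrocyte markers rose in 10 of 31 cases and fell in 6 (median 0.11). Clu, clusterin, rose from 88.2 ± 13.1 to 157 ± 11.2 RPKM (SD, n = 9 each), without overlap, the lowest value being 57.8 RPKM in mouse 9. Glul, glutamine synthetase, rose by 0.72 ± 0.10 and Gjb6, a gap junction protein, by 0.86 ± 0.12 (SE), both without overlap. Gpc6, a glypican that promotes early synapses, fell by 0.59 ± 0.08 (SE). The other astrocyte markers that fell were Thbs1, Aldh1l1, Thbs2, Gpc4 and Gja1, so that the markers did not change in 1 direction. Microglia markers rose in 7 of 24 cases and fell in 1 (median 0.15), with 14 rising without mice 10 and 38 and 12 without mouse 10. C1qb, of the complement complex that tags synapses, was at 16.9 to 40.9 RPKM at days 10-12 and 27.9 to 33.1 RPKM at days 21-34, and mouse 10 alone of the earlier group exceeded 25.4 RPKM. Ctsd, a lysosomal protease, rose by 0.26 ± 0.05 (SE), and Mrc1, of perivascular macrophages, fell by 0.47 ± 0.13 (SE).

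Of 28 markers of endothelial and mural cells 13 fell, 5 rose and 10 were not called (median -0.16). Cldn5, the tight junction protein of the blood-brain barrier, fell from 31.3 ± 3.75 to 18.9 ± 2.35 RPKM (SD, n = 9 each). Tie1, an endothelial receptor, fell by 0.54 ± 0.07 and Slc7a5, which carries large amino acids and thyroid hormone, by 0.61 ± 0.08 (SE), all 3 without overlap. Slco1a4, a barrier transporter of organic anions, rose from 5.41 ± 1.33 to 12.4 ± 1.72 RPKM (SD, n = 9 each), also without overlap. Collagens and fibroblast matrix fell in 25 of 31 cases and rose in 1 (median -0.61), 11 without overlap. Col4a1, of the vascular basement membrane, fell from 21.6 ± 2.56 to 11.5 ± 2.07 RPKM (SD, n = 9 each). Lamb1, Nid2 and Col18a1, of the same membrane, fell by 0.76 ± 0.08, 1.23 ± 0.14 and 1.0 ± 0.11 (SE), and Dcn, of fibroblasts, by 0.61 ± 0.13 (SE).

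Clock genes rose in 11 of 18 cases and fell in 0 (median 0.48), 6 without overlap. The labels give no time of day for the dissections, so that age and hour cannot be told apart for these genes. Dbp, an output factor of the clock, was at 4.51, 5.32 and 7.76 RPKM (lowest, median, highest) at days 10-12 and 10.9, 11.8 and 14.7 RPKM at days 21-34, without overlap (1.07 ± 0.09, SE; adjusted p = 2.41e-07). Tef, its relative, rose from 28.1 ± 3.22 to 40.6 ± 2.64 RPKM, Nr1d2, a repressor of the clock, from 12.9 ± 0.829 to 19.5 ± 1.55 RPKM and Ciart, another repressor, from 2.82 ± 0.567 to 6.11 ± 1.33 RPKM (SD, n = 9 each). Bhlhe41, a repressor that binds E-boxes, rose by 0.80 ± 0.12 (SE). At day 3 Dbp, Tef, Nr1d2 and Ciart were at 2.31, 11.5, 5.86 and 1.36 RPKM, and at days 55-111 at 14.3, 44.1, 21.0 and 5.76 RPKM.

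Because these genes rose together, their promoters are shown where they hold a motif of the clock. The E-box CACGTG is bound by the CLOCK and BMAL1 pair and the D-box TTATGTAA by Dbp, Tef and Hlf. Windows of 300 bases around RefSeq starts (GRCm38.p6) were searched on both strands. A gene can have several windows. An E-box was in 4 of the 12 windows of called clock genes (Ciart, Tef, Bhlhe41) and in 2 of the 10 windows of those not called (Cry1, Per1), against 7.15% of all 32851 windows. Counted by gene, it was in 3 of the 9 called genes with a window and in 2 of the 7 not called. Bhlhe40 and Per2, also called, had no window. A D-box was in 1 of the 12 (Per3) and 0 of the 10, against 0.94% of all windows. Each line below gives 100 bases upstream of a start, 5′ to 3′ on the strand of the gene, with the motif in capitals, and the match is a description of letters, not of binding.
Ciart (chr3:95882256-95882355, minus strand): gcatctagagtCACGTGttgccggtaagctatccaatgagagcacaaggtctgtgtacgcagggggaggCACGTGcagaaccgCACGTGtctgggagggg
Tef, first start (chr15:81802499-81802598, plus strand): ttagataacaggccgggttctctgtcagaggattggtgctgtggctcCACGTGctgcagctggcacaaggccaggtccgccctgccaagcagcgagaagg
Tef, second start (chr15:81811229-81811328, plus strand): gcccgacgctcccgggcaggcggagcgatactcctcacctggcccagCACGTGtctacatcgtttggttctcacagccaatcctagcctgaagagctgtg
Bhlhe41 (chr6:145865521-145865620, minus strand): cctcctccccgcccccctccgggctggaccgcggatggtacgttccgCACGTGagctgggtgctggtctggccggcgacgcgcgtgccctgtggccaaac
Per3 (chr4:151044794-151044893, minus strand): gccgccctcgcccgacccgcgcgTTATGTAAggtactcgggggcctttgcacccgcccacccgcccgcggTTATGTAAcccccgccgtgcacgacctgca
Ciart holds 3 E-boxes in the stretch and Per3 2 D-boxes, and the other stretches hold 1 E-box each.

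Hormone-responsive genes were compared next. Of 17 glucocorticoid response genes 9 rose and 0 fell (median 0.31). As for the clock genes, age and hour of dissection cannot be told apart here. Mt1 and Mt2, metallothioneins, rose from 52.6 ± 13.9 to 128 ± 22.2 RPKM and from 38.3 ± 13.8 to 105 ± 27.4 RPKM (SD, n = 9 each), without overlap. Sult1a1, a sulfotransferase, rose by 0.95 ± 0.20 and Tsc22d3, the glucocorticoid-induced leucine zipper, by 0.48 ± 0.13 (SE). Thyroid hormone response genes were split, 5 of 20 higher and 7 lower (median -0.02). Thrsp, a lipogenic target, rose from 3.36 ± 0.901 to 7.15 ± 1.33 RPKM (SD, n = 9 each), without overlap, and Thra, the main receptor of brain, fell by 0.49 ± 0.07 (SE). In the neurotrophin list 3 of 12 rose and 1 fell (median 0.13): Ntrk2, the receptor of BDNF, rose from 39.8 ± 1.08 to 47.7 ± 2.01 RPKM (SD, n = 9 each), without overlap, Sort1, the sortilin that binds proneurotrophins, by 0.48 ± 0.12 (SE), and Ntf3, neurotrophin 3, fell by 0.67 ± 0.19 (SE), a call lost with the striatal covariate.

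Immediate early genes, which follow neuronal activity, rose in 5 of 25 cases and fell in 0 (median 0.42), a share of 20% beside 19.3% of all genes. The count was 8 without mouse 14 or mouse 42, and without mice 10 and 38 there were 4 higher and 1 lower. Homer1, a scaffold with an activity-induced short form, rose from 9.0 ± 2.72 to 17 ± 4.64 RPKM, Fosb from 1.01 ± 0.482 to 2.96 ± 1.73 RPKM and Gadd45b from 3.45 ± 0.863 to 5.51 ± 1.3 RPKM (SD, n = 9 each). At days 10-12 Homer1 and Gadd45b were lowest in mice 10, 37 and 38, at 4.9 to 6.6 and 1.94 to 2.95 RPKM. The other mice of that age were at 8.83 to 11.7 and 3.39 to 4.7 RPKM. Fosb was lowest in mice 37 and 38, at 0.36 and 0.392 RPKM. These libraries enlarge the rises. Bdnf, a neurotrophin released by activity, rose by 0.49 ± 0.11 (SE). Arc, which reaches synapses as RNA, ranged from 6.05 to 24.4 RPKM at days 10-12 and from 9.66 to 99.9 RPKM at days 21-34, so widely that it was not called (adjusted p = 0.0816). In the 11 promoter windows of the 4 called genes that have one, neither the cAMP response element TGACGTCA (1.79% of all windows) nor the EGR site GCGTGGGCG (0.61%) was found on either strand. In the 21 windows of genes not called the first was in 2 (Btg2, Dusp1) and the second in 0.

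Genes of chromatin and DNA methylation fell in 14 of 33 cases and rose in 6 (median -0.13). Dnmt3a, which methylates DNA anew in postnatal neurons, was at 25.4, 26.9 and 32.3 RPKM (lowest, median, highest) at days 10-12 and 8.45, 11.2 and 16.1 RPKM at days 21-34. The groups were far apart (-1.33 ± 0.10, SE; adjusted p = 1.54e-07), and at day 3 the mean had been 16.2 RPKM. Tet1, which starts demethylation, fell 2.53-fold, and Mbd2 and Ezh1 rose by 0.48 ± 0.06 and 0.48 ± 0.07 (SE), all 3 without overlap. RNA-binding proteins of neurons fell in 12 of 25 cases and rose in 5 (median -0.18), with 7 falls without mice 10 and 38 and 3 rises without mouse 45. Nova2 and Srrm4, splicing regulators, fell by 0.51 ± 0.09 and 0.34 ± 0.07 (SE), Elavl3, a stabilizer of messages, by 0.26 ± 0.06 and Rbfox2, another splicing factor, by 0.19 ± 0.04 (SE). Cytosolic ribosomal proteins fell in 30 of 82 cases and rose in 1 (median -0.16). Rplp0, of the ribosomal stalk, fell from 112 ± 15.7 to 65.1 ± 7.88 RPKM (SD, n = 9 each), and Rpl22, Rps2 and Rpl15 fell by 0.51 ± 0.05, 0.56 ± 0.08 and 0.50 ± 0.07 (SE). Ribosomal protein genes have many processed copies in the genome, and how reads shared with them were assigned is not given in the sources used here.

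Receptors of monoamines, acetylcholine and peptides changed near the background, with 9 of 38 higher and 6 lower (median 0.14). Oprd1, the delta opioid receptor, rose from 2.63 ± 0.427 to 4.70 ± 0.712 RPKM (SD, n = 9 each), without overlap, and Adra2c, an adrenergic receptor, by 0.98 ± 0.19 (SE). Sstr1, a somatostatin receptor, fell by 0.86 ± 0.13 and Oprl1, the nociceptin receptor, by 0.58 ± 0.11 (SE). Cortical layer markers were mostly not called, with 3 of 24 higher and 1 lower (median 0.02). The falls were 6 without mice 10 and 38, and the rises 0 without any 1 of mice 13, 41 or 43. Cux1, of upper layers, fell by 0.31 ± 0.08 (SE), and Calb1, Pcp4 and Ccn2 rose by 0.46 ± 0.16, 0.40 ± 0.15 and 0.50 ± 0.19 (SE; adjusted p = 0.0293 to 0.0398). These rises were lost in 7, 7 and 10 of the 18 fits that left out a mouse, and with the striatal covariate. Interferon response and MHC class I genes rose in 6 of 15 cases and fell in 0 (median 0.33), and in 10 without mouse 10. Of 19 members measured, these 15 passed the filter of 0.5 RPKM in 9 of 18 libraries. Low members such as Ifit1 can pass it through days 21-34. A gene that passes in this way could hardly fall, so the filter in part sets the absence of falls. Ifit1, an interferon-induced protein, was at 0.0851 to 2.13 RPKM at days 10-12, where mouse 10 held the highest value and the next was 0.380 RPKM, and at 0.610 to 1.61 RPKM at days 21-34. Its rise was 0.84 ± 0.23 (SE) and 1.08 without mice 10 and 38. Ifi27 rose by 0.78 ± 0.15, Ifit3 by 0.68 ± 0.22 and H2-T23, a class I molecule, by 0.77 ± 0.22 (SE), the last pair with mouse 10 far above the rest of its age. With the striatal markers as a covariate 2 genes of the list rose and the calls of Ifit1, Ifit3 and H2-T23 were lost (adjusted p = 0.0863, 0.167 and 0.0952), and in line a alone 1 rose.

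Markers of tissue next to the cortex were counted in the same way. Of 14 striatal markers 7 rose and 0 fell (median 0.97), 12 rose without mice 10 and 38, and 3 when any 1 of 10 other mice was left out. Penk, the enkephalin precursor, was at 10.5 to 149 RPKM at days 10-12 and 47.6 to 305 RPKM at days 21-34. Ppp1r1b, the dopamine-regulated phosphatase inhibitor, rose by 1.65 ± 0.60 (SE), a call lost in 10 of the 18 fits that left out a mouse, Rasd2, a striatal GTPase, by 1.19 ± 0.27 (SE) and Tac1, the substance P precursor, by 0.87 ± 0.29 (SE). With the mean of these markers as a covariate in the fit of all genes 2544 genes were higher and 3165 lower, and 81.5% of the calls were kept. Markers of hypothalamus, thalamus and septum had 0 of 7 tested called by limma (median -0.16), Tcf7l2 being closest at -0.92 ± 0.36 (SE; adjusted p = 0.0511). Those of olfactory bulb and neuroblasts had 1 of 10 higher, Meis2 (median 0.31), a call that did not hold in 14 of the 18 fits that each left out a mouse. Those of choroid plexus and ependyma had 1 of 7 higher, Enpp2, which oligodendrocytes also express (median 0.02). Blood genes rose in 3 of 6 cases (median 0.70), Hba-a1 from 18.7 ± 3.33 to 42.8 ± 32.6 RPKM (SD, n = 9 each), with mouse 13 at 127 RPKM, and Hbb-bs by 0.67 ± 0.24 (SE). The other genes of smallest p in these lists, Slc17a6, Dlx6, Trh, Prkcd, Zic1, Foxj1, Aqp1, Clic6 and Hbb-bt, were not called (adjusted p = 0.0528 to 0.651). Hba-a1 and its near-identical copy Hba-a2 cannot be told apart with certainty.

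Whether the change differed between control and transgenic mice was tested as an interaction. By limma 0 of 15043 genes (0.0%) passed, while the unadjusted p was under 0.05 for 716, and 0 passed in each alternative tried. The smallest p was that of Med29, a subunit of the Mediator complex, whose log2 difference was 0.07 in controls and -0.54 in transgenic mice (interaction -0.62 ± 0.11, SE; adjusted p = 0.605). The next was ENSMUSG00000075736, a gene listed without a symbol, at 0.53 in controls and -2.87 in transgenic mice (interaction -3.40 ± 0.65, SE; adjusted p = 0.605). Mal rose by 4.28 in controls and 2.95 in transgenic mice (interaction -1.33 ± 0.73, SE; adjusted p = 0.904), a difference within the spread of mice but with an error wide enough to hold large differences. Between the lines the change differed in 158 genes (1.05%), with the log2 difference of line b above that of line a in 65 and below it in 93, but this count was 8 to 656 when 1 mouse was left out, 656 without mouse 9 and 8 without mouse 15, and moved by over 1.5 times for 14 of the 18 mice. Shisa6, an auxiliary protein of AMPA receptors, was at 7.88 ± 0.971 RPKM at days 10-12 and 2.52 ± 0.156 RPKM at days 21-34 in line a (SD, n = 5 each). In line b it was at 3.30 ± 0.390 and 2.76 ± 0.633 RPKM (SD, n = 4 each). The lines were apart at the earlier age, when line b mice were also 1 to 2 days older, and overlapped in spread at the later one. Oxr1, of the response to oxidative stress, had means in opposite order at the 2 ages, the lines overlapping at the later one, at 23.8 ± 1.64 in line a and 33.5 ± 2.09 RPKM in line b at days 10-12 and 54.1 ± 3.76 and 47.1 ± 2.22 RPKM later (SD, n = 5 and 4). The other genes with the smallest p were Gm15427, Prkar1b and Lrrc57, at differences of 0.61 ± 0.08, -0.54 ± 0.07 and -0.72 ± 0.10 (SE; adjusted p = 0.00545, 0.00545 and 0.00616).

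Within the later group days 32-34 were compared with days 21-24. By limma 0 of 15043 genes (0.0%) passed, while the unadjusted p was under 0.05 for 2028. The closest were Wnt9a, a Wnt ligand, and Hkdc1, a hexokinase relative, at -0.90 ± 0.09 and -0.87 ± 0.09 (SE; adjusted p = 0.0513 each). The count was 39 without mouse 42, 17 with array weights, 6 with a mean of at least 2 RPKM required and 4 after quantile normalization. With 5 mice against 4 a difference that did not pass is not shown to be absent. Slc16a1 stood at -0.39 ± 0.15 (SE; adjusted p = 0.320) in this comparison.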

How the data were processed

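Prefrontal cortex poly(A)+ RNA of 59 mice was measured as RPKM. The authors deposited the RPKM values in 1 table of 18610 rows, with all 59 columns used here; reads were mapped with STAR to mm9, per the submitters' processing notes. For the counting method, its strand and the annotation, the sources used here give nothing. Near-identical or overlapping genes are therefore uncertain.

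From this table log2(RPKM + 0.5) was fitted with limma 3.58.1 (R 4.3.3) on the 18 mice, with genotype and line as covariates, for 15043 genes with at least 0.5 RPKM in 9 of 18 libraries. P-values were Benjamini-Hochberg adjusted over all of them, with 0.05 as threshold. Pairs were tested by exact permutation. Whole reads underlay all values of 1085 low rows within 0.05 reads, which gave the depth. Alternatives were other pseudocounts, filters, scalings, covariates, subsets of mice and leaving out each mouse.

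Genes named were the 12 largest rises and falls without overlap at a mean of at least 1 RPKM, the 4 smallest p in each list, pair partners, the smallest p of each interaction, and the transgene rows. Ttr, Mbp, Scn4b, Arc, Bhlhe41, Gpc6 and the other astrocyte markers that fell were chosen after their values were seen. So were the glycolysis genes that fell, Per3, Cry1, Per1, Per2, Bhlhe40 and the promoter motifs of clock genes. The members and lists were chosen with earlier results of these data known. Promoter windows are RefSeq's, on GRCm38.p6, and were matched by symbol only. Some genes that the rule names, with 2 of the pairs, are not reported here.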

Additional observations from a re-analysis of the deposited data

Results flagged for a closer look

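In 416 groups of 9 mice 33 values lay apart from the rest of their group by Dixon's criterion, which chance meets in about 1 of 20 groups. Of these, 11 were in mouse 10 of days 10-12. It was highest for Sult1a1 (7.22 RPKM), Ifit1 (2.13), H2-T23 (4.60), Ifit3 (4.17) and C1qb (40.9 RPKM). It was lowest for Rpph1 (0.682 RPKM), Cplx1 (101), Map1a (87.5), Tubb4a (191), Kcnab3 (2.80) and Oxct1 (148 RPKM).

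Other mice of days 10-12 stood apart for H19 (14.4 RPKM, mouse 37, highest), Slc12a2 (11.8 RPKM, mouse 38, highest), Thra (142 RPKM, mouse 38, lowest) and Clu (57.8 RPKM, mouse 9, lowest).

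At days 21-34 mouse 15 was highest for 4 genes of neuronal growth, Dpysl3 (38.1 RPKM), Dpysl5 (24.4), Tubb2b (133) and Plxna3 (8.16 RPKM). Mouse 41 was lowest for mt-Nd2 (2451 RPKM), mt-Nd4 (1624), mt-Nd1 (3503) and mt-Cytb (5188 RPKM) and highest for Tet1 (2.15 RPKM). Mouse 13 was highest for Hba-a1 (127 RPKM), Hba-a2 (108) and Sqle (17.3 RPKM), mouse 16 for Ttr (240.0 RPKM), Etnppl (8.67) and Tcf7l2 (1.91 RPKM), with Ccn2 lowest there (4.61 RPKM), and mouse 14 for Thra (161 RPKM), with Tie1 lowest there (2.04 RPKM).

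The change with age differed between the lines in 5 genes named, by limma's interaction: Gm15427 (0.61), Prkar1b (-0.54), Oxr1 (-0.68), Shisa6 (1.23) and Lrrc57 (-0.72), line b minus line a on the log2 scale. Line and exact age at days 10-12 cannot be told apart.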

How the results depend on the processing

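The 2905 genes higher became 1103 in control mice alone, 1818 in line a alone and 1676 in transgenic mice alone, and 2597 to 2998 when 1 mouse was left out. The 3361 genes lower became 992 in control mice alone and 1921 in line b alone, and 3032 to 3456 when 1 mouse was left out. These subsets hold fewer mice. The 158 genes that differed between lines became 365 with all 59 mice in the fit, 531 with array weights, 100 after quantile normalization and 277 with sex as a covariate, and 8 to 656 when 1 mouse was left out; the cause was not tested. The 0 genes between days 21-24 and 32-34 became 17 with array weights, 6 with a mean of at least 2 RPKM, 4 after quantile normalization and 0 to 39 when 1 mouse was left out. The 17 pairs became 0 in control mice alone, where 4 against 4 cannot pass (smallest exact p = 0.0286), and 15 to 19 when 1 mouse was left out. In line b alone the log2 difference changed sign for Slc17a7 (-0.44), Dio2 (-0.46), Doc2b (0.06), Enpp2 (-0.04), Gm15427 (0.23) and Lrrc57 (-0.13), and in control mice alone for Med29 (0.07) and ENSMUSG00000075736 (0.53). Of 182 called genes named, 170 kept the call whichever mouse was left out and 108 under all other alternatives. No paired analysis was possible because mouse numbers are not shared between the groups. Depth limits genes near 0.5 RPKM.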
